A study of Mus musculus with 4 samples.

Results

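The Schlafen gene cluster of the mouse is a row of related genes on chromosome 11, and its members here are Slfn1, Slfn2, Slfn3, Slfn4, Slfn5, Slfn8 and Slfn9. They were chosen by symbol alone: the gene identifiers of the deposited count tables were matched to the GENCODE names, and all 7 members were found among 50600 annotated genes. The RNA came from primary T cells of the inbred strain C57BL/6NJ, and 4 libraries were sequenced. The labels count them as biological replicates, numbered 1 to 4, and put them in 1 group, so levels are described within that group and no treatment or genotype is compared. The sample labels give no sex, age or culture condition, all 4 libraries carry the same donor entry, and no label says that they came from separate animals. For each library the name of the alignment file in the header includes Th0, activated and 24 h; Th0 is the usual name for CD4+ helper cells activated without polarising cytokines.

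Gene-assigned fragments summed to between 47558517 and 60102919 in replicates 1, 3 and 4 and to 273136467 in replicate 2. Levels below are TPM, in which counts are divided by exon length and each library sums to the same total, so that genes of different length can be set side by side. Of 10 marker genes of macrophages, monocytes and neutrophils 10 were below 1 TPM in every library and 6 had no fragment, whereas each of 6 T-cell markers reached 10 TPM in all of them. Replicates 1 and 2 had Xist at 163 and 150 TPM and Ddx3y below 0.1 TPM. Replicates 3 and 4 had Xist at 0.715 and 0.696 TPM and Ddx3y at 38.8 and 39.3 TPM. The first pattern is that of female cells and the second that of male cells, so the 4 libraries did not all come from 1 animal. Whether replicates with the same pattern came from the same animal is not known. The part of this difference in Xist and Ddx3y in the spread of the Schlafen genes was not tested. No marker gene of dendritic cells, B cells, natural killer cells, red cells and platelets or gut epithelium reached 1 TPM in all 4 libraries; the summed B-cell markers had 2.08 to 5.10 TPM and the summed gut markers 0.898 to 1.71 TPM.

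Schlafen proteins regulate the growth and differentiation of lymphoid and myeloid cells, and several of them bind or cut transfer RNA or ribosomal RNA. In the mouse they fall into 3 subgroups by length: short proteins (Slfn1 and Slfn2), intermediate ones (Slfn3 and Slfn4), and long ones with a helicase-like domain (Slfn5, Slfn8, Slfn9, Slfn14 and the pseudogene Slfn10-ps). Many of the genes are inducible by type I interferon. Slfn2 is the member best known in T cells: a point mutation in it, named elektra, leaves mouse T cells unable to keep quiescent, and the protein binds transfer RNA and shields it from the ribonuclease angiogenin.

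The cluster ran over 264 kb of mm10 chromosome 11, from 82951349 to 83215154, and its members lay on both strands. In order along the chromosome they were Slfn5 (plus strand, 82951349 to 82964840), Slfn9 (minus, 82978390 to 82991830), Slfn8 (minus, 83002158 to 83020810), Slfn2 (plus, 83065112 to 83070678), Slfn1 (plus, 83116849 to 83122670), Slfn4 (plus, 83175186 to 83190216) and Slfn3 (plus, 83191330 to 83215154). All 7 are annotated as protein-coding. The longest annotated reading frames, without the stop codon, had 1011 bases in Slfn1 and 1134 in Slfn2, against 1920 in Slfn3 and 1806 in Slfn4. They had 2652 bases in Slfn5 and 2730 in both Slfn8 and Slfn9. The merged exons of the short genes numbered 2 each, those of Slfn3 5, of Slfn8 and Slfn9 6 each, and of Slfn4 and Slfn5 8 each.

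RefSeq promoters of GRCm38.p6, which is the build of the files, were found for all 7 members and run from 250 bases before to 50 bases after the annotated start. They were searched on both strands for the core of the interferon-stimulated response element (GAAA, any 2 bases, GAAA), the GAS element (TTCNNNGAA, which reads alike on both strands) and the AP-1 site (TGANTCA, also alike on both strands); no matches overlapped in these promoters. Slfn5, Slfn8 and Slfn9 held the interferon element core, which was found in 3.44% of 32851 promoters of the same length. Slfn4 held an AP-1 letter match with its first base at -34 from its start, found in 7.81% of promoters, and the GAS letters, found in 8.30%, were in none of the members' windows. Slfn1, Slfn2 and Slfn3 held none of these letters in this window. The promoter of Slfn2, the most abundant member, is shown beside those of Slfn9 and Slfn8, which are the most similar pair, and that of Slfn5, with matched motif letters in capitals.
Slfn2, chr11:83064862-83065161, plus strand: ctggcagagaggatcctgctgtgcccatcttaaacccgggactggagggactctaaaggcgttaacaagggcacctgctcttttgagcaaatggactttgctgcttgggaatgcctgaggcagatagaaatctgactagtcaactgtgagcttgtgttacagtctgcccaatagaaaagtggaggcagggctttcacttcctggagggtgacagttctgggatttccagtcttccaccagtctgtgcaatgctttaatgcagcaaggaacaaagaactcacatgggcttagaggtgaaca
Slfn9, chr11:82991781-82992080, minus strand: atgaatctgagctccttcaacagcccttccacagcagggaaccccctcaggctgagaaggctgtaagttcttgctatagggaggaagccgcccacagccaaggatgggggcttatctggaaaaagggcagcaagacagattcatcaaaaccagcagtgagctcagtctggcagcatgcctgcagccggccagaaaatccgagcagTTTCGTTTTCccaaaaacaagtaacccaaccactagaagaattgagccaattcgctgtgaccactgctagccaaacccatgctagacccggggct
Slfn8, chr11:83020761-83021060, minus strand: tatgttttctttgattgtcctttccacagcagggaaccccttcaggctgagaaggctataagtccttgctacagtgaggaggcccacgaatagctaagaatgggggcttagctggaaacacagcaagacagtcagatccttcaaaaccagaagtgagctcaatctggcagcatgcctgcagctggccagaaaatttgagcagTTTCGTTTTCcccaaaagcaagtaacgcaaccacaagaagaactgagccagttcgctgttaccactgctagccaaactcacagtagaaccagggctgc
Slfn5, chr11:82951852-82952151, plus strand: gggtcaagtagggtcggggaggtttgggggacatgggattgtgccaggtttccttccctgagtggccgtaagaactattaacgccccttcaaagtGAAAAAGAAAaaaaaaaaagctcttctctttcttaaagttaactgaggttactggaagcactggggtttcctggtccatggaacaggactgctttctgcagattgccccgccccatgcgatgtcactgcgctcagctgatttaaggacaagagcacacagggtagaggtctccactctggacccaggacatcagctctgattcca
The Slfn9 and Slfn8 promoters had 84.9% identical letters over 292 aligned bases, and both carried the same match in reverse orientation, with its first base at -45 from the start in Slfn9 and at -48 in Slfn8. Slfn8 has a further RefSeq start 88 bases downstream, whose window holds the same match. The Slfn5 match had its first base at -155 from a RefSeq start that lies 753 bases inside the gene as drawn in the files. A match of letters describes the sequence and does not show that a factor binds there.

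Slfn2 was by far the most abundant member. It had 907, 906, 890 and 883 TPM in replicates 1 to 4, from 26765, 119264, 20933 and 20610 fragments, with a mean of 896 ± 11.6 TPM (SD, n = 4). That placed it at rank 128 of 50600 annotated genes and made it 91.2 ± 0.269% of the summed TPM of the 7 members. The sum of the other 6 members was 83.2, 89.6, 87.0 and 86.2 TPM in replicates 1 to 4. The level of Slfn2 was thus 10.1 to 10.9 times that sum within each library, and the libraries lay close to each other. Replicates 1 and 2, with high Xist, had slightly more Slfn2 than replicates 3 and 4, with low Xist, without overlap. Slfn9 went the other way, with 27.1 and 27.4 TPM in replicates 1 and 2 against 28.1 and 28.4 in replicates 3 and 4. The remaining members overlapped. How many of all genes separate in this way was not counted, and neither order was tested. With so few libraries on each side such an order is common by chance, so it is no result about these genes. The coefficient of variation of Slfn2 was 1.30%, against 0.595% that counting error alone gives at these depths. Slfn1, the other short member, whose forced expression slows the growth of mouse thymocytes, had 20.4, 24.6, 23.7 and 22.6 TPM in replicates 1 to 4. Replicate 1 was its lowest library and replicate 2 its highest. Its mean was 22.8 ± 1.79 TPM (SD, n = 4), so that within the short subgroup Slfn2 exceeded Slfn1 39.2-fold in mean TPM.

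**Figure D1:**
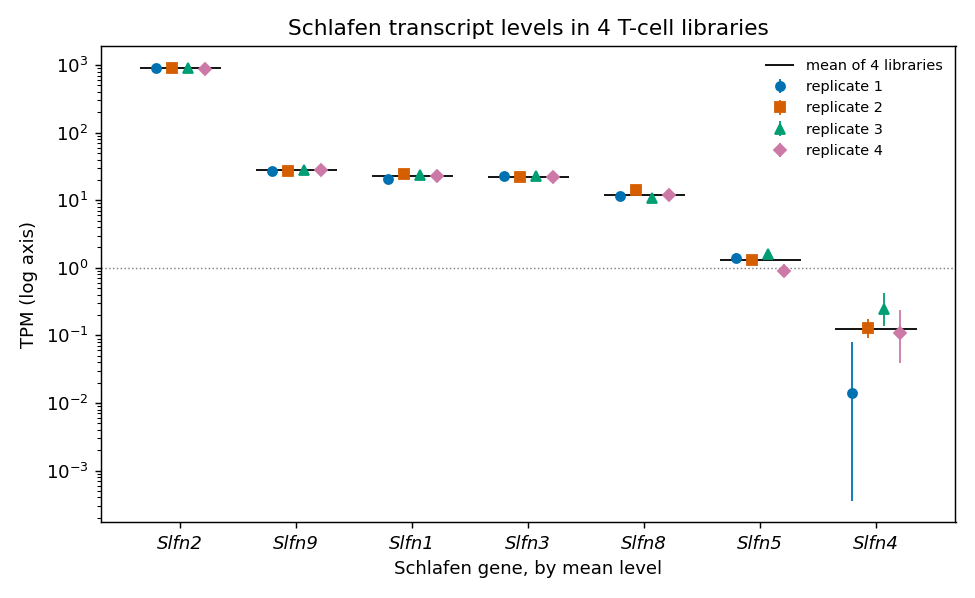
TPM of the 7 Schlafen genes in the 4 libraries, on a log axis; points are libraries with exact 95% Poisson intervals of their counts, black lines are means and the dotted line marks 1 TPM. Slfn2 stands near 900 TPM in every library, Slfn9, Slfn1, Slfn3 and Slfn8 lie between 10.8 and 28.4 TPM, Slfn5 near 1 and Slfn4 below 0.3.

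The intermediate members differed widely in level. Slfn3, a gene studied in regulatory T cells of the mouse and in rodent gut epithelium, had 22.8, 21.9, 22.5 and 22.3 TPM in replicates 1 to 4, with a mean of 22.3 ± 0.375 TPM (SD, n = 4). Its 4 values had a coefficient of variation of 1.68%, below the 2.65% given by counting error alone. Slfn4, which is known from mouse macrophages and other myeloid cells, had 1, 40, 14 and 6 fragments in replicates 1 to 4. These correspond to 0.0142, 0.128, 0.250 and 0.108 TPM, and no library reached 1 TPM. The single fragment in replicate 1 has an exact 95% Poisson interval of 0.00036 to 0.0792 TPM, which does not reach the lower bound of replicate 3, 0.137 TPM. Mean TPM of Slfn3 was 179 times that of Slfn4, and the coding sequences of the pair were 92.3% identical over 1785 aligned bases. The summed level of the 10 myeloid markers was 1.16, 0.550, 0.402 and 0.355 TPM in replicates 1 to 4. The sum was highest in replicate 1, where Slfn4 was lowest, and came there from Lyz2 (0.642 TPM) and Adgre1 (0.521 TPM) alone. Itgam, another of these markers, had 0 TPM in replicate 1 and 0.0604, 0.0704 and 0.114 TPM in replicates 2 to 4. These values rest on few fragments, and a relation to Slfn4 was not tested. S100a8, S100a9, Ly6g, Mpo, Elane and Csf1r had no fragment in any library.

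Among the long members Slfn9 and Slfn8 were transcribed at moderate levels and Slfn5 was near the limit of 1 TPM. Slfn9 had 27.1, 27.4, 28.1 and 28.4 TPM in replicates 1 to 4 (mean 27.8 ± 0.601, SD, n = 4). Slfn8 had 11.4, 14.3, 10.8 and 11.9 TPM (mean 12.1 ± 1.52). The highest Slfn8 value came from replicate 2, whose exact Poisson interval began at 13.9 TPM, above the upper bounds of the other libraries (11.7 to 12.8 TPM). Slfn5, whose human counterpart is an interferon-inducible nuclear protein that restricts herpes simplex virus, had 1.42, 1.32, 1.60 and 0.913 TPM in replicates 1 to 4 (mean 1.31 ± 0.290). Its lowest library was replicate 4, with 81 fragments and an exact 95% Poisson interval of 0.725 to 1.13 TPM. Slfn9 exceeded Slfn8 2.29-fold in mean TPM, with coding sequences 92.7% identical over 2730 aligned bases.

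Schlafen genes outside the 7 members ranged from a few fragments to the level of Slfn8. Slfn10-ps, the pseudogene next to Slfn8, had 9.96, 12.3, 15.7 and 12.2 TPM in replicates 1 to 4 (mean 12.5 ± 2.37, SD, n = 4), a range that overlaps that of Slfn8. Slfn14, known from ribosome control in platelets and red-cell precursors, had 0, 11, 0 and 2 fragments. With 3 fragments as the limit that a count of 0 allows, replicates 1 and 3 permit up to 0.0456 and 0.0573 TPM of Slfn14. Slfnl1, the related gene on chromosome 4, had 1 fragment over the 4 libraries.

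A level of 1 TPM was reached in all 4 libraries by 5 of the 7 members, and 10 TPM by the same 5. Over all annotated genes these shares were 22.7% and 16.0%, and over 21764 protein-coding genes 46.4% and 35.6%. The members' median was 22.3 TPM, beside 0.512 TPM for protein-coding genes and 28.6 TPM for the genes that reached 1 TPM throughout. Slfn9, Slfn1, Slfn3 and Slfn8 ranked 5841, 6386, 6439 and 7979 among all genes, Slfn5 ranked 11969 and Slfn4 ranked 16813.

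The order of the levels was set out by comparing all 21 pairs of members within each library on the log2(TPM + 1) scale. In 20 pairs the same gene was higher in 4 of 4 libraries. With 4 libraries, an exact permutation test that flips the signs of the differences (two-sided) cannot go below p = 0.125, which these 20 pairs reached (0.131 after Benjamini-Hochberg adjustment over the 21 pairs), so none could pass 0.05. Of the 6 neighbouring pairs in the order, Slfn2 exceeded Slfn9 by 4.96 ± 0.05 (mean difference ± SD, n = 4), a gap far above the spread between libraries. Slfn9 exceeded Slfn1 by 0.27 ± 0.10, and Slfn3 exceeded Slfn8 by 0.84 ± 0.18. Slfn8 exceeded Slfn5 by 2.50 ± 0.28 and Slfn5 exceeded Slfn4 by 1.03 ± 0.19. The last of these is set by the pseudocount of 1, since Slfn4 lay far below 1 TPM: with a pseudocount of 0.1 it was 2.73, and the ratio of mean TPM was 10.5. Slfn1 and Slfn3 differed by 0.03 ± 0.13, less than their spread (exact sign-flip permutation p = 0.625, the same after adjustment), with Slfn1 higher in 3 of 4 libraries. Without replicate 2 that difference was -0.017.

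**Figure D2:**
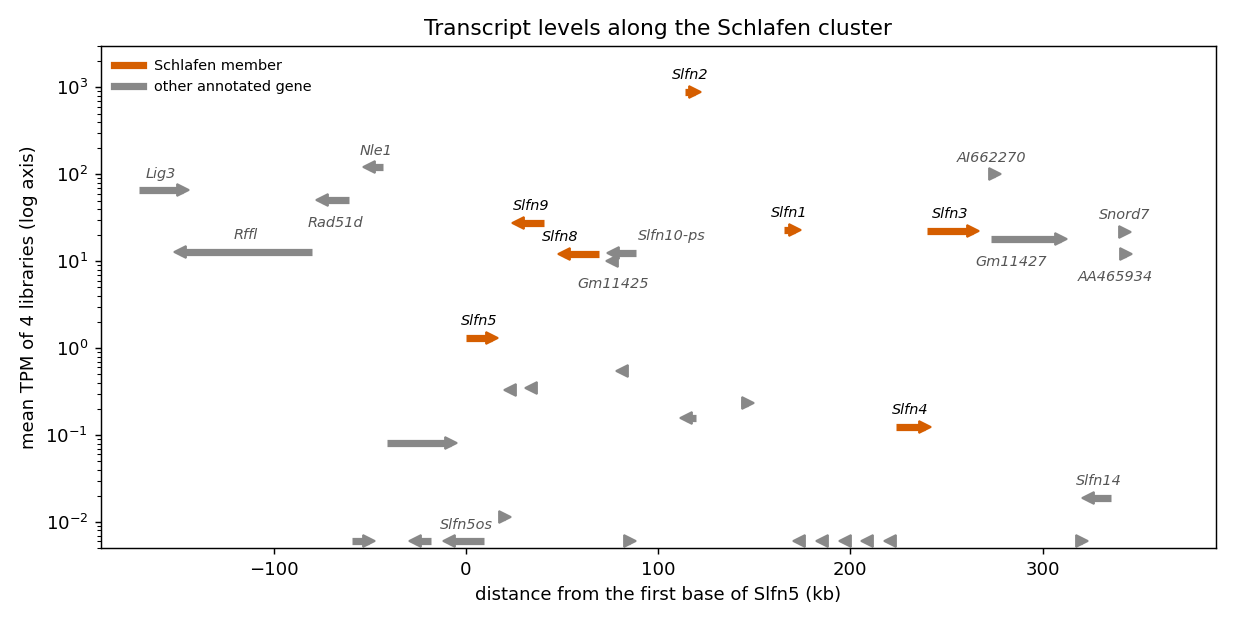
Mean TPM over the 4 libraries (log axis) of each annotated gene along the cluster, against the distance in kb from the first base of Slfn5; bars span the gene, arrowheads give the strand, orange marks the 7 members and genes without a fragment are drawn at the bottom edge. Slfn2, at 896 TPM, stands between Slfn8 and Slfn1 at 12.1 and 22.8 TPM, and Slfn4, at 0.125 TPM, lies directly before Slfn3 at 22.3 TPM.

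Position along the cluster did not order the levels. Slfn4 ends about 1 kb before Slfn3 begins, on the same strand, and the members on either side of Slfn2, Slfn8 and Slfn1, were 74.1-fold and 39.2-fold below it. Between the outermost members lie 15 further annotated genes, of which 7 had no fragment in any library and 2, Slfn10-ps and the processed pseudogene Gm11425 (10.01 ± 2.27 TPM, SD, n = 4), reached 1 TPM throughout. Gm20234, annotated antisense to Slfn2, had 8 fragments in all, against 187572 for Slfn2 itself, and Slfn5os, antisense to Slfn5, had none. The counts are strand-specific by the counting option, so that these values separate the strands. The nearest genes before Slfn5 with at least 1 TPM in each library were Nle1, a ribosome assembly factor (120 ± 9.61 TPM), the recombination gene Rad51d (50.8 ± 2.11) and the ubiquitin ligase gene Rffl (12.9 ± 0.473). After Slfn3 came AI662270, an annotated processed transcript, at 119, 102, 90.02 and 87.9 TPM in replicates 1 to 4. It overlaps on the same strand with the pseudogene Gm11427 (18.1 ± 1.49 TPM), and fragments in the shared part were by default counted for neither. AA465934 (12.1 ± 1.48 TPM) followed.

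Slfn2 was among the steadiest genes between libraries, and the lower members were not called as variable. Variation was tested for 12712 genes by edgeR's goodness of fit, with 1 mean per gene, in which a large residual deviance means that the libraries differ more than those of other genes of that level. Of all genes tested 0.362% were called at a Benjamini-Hochberg adjusted p under 0.05. Of the 7 members 6 passed the filter on low counts (Slfn4 did not), and 0 were called by edgeR; 0 had an unadjusted p under 0.05, and 0 were called with DESeq2 size factors. A count of 0 among 6 is near the background of 0.362% and is no result about the members. Slfn2 had a residual deviance of 0.0900, higher than only 1.24% of tested genes, and Slfn3 one of 0.252. Slfn9 had 0.419, Slfn1 had 1.399, Slfn5 had 3.15 and Slfn8 had 4.21, against a median of 1.98 over all tested genes. The deviance was 0.494 for Slfn8 without replicate 2, 0.461 for Slfn5 without replicate 4 and 0.231 for Slfn1 without replicate 1. In each case this was the library whose removal lowered the deviance most. Part of the drop is built in by that choice and by the fewer degrees of freedom, and none of these genes was called. Slfn10-ps had 9.16, with an edgeR adjusted p of 0.706, and AI662270 had 16.4, with an edgeR adjusted p of 0.166.

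**Figure D3:**
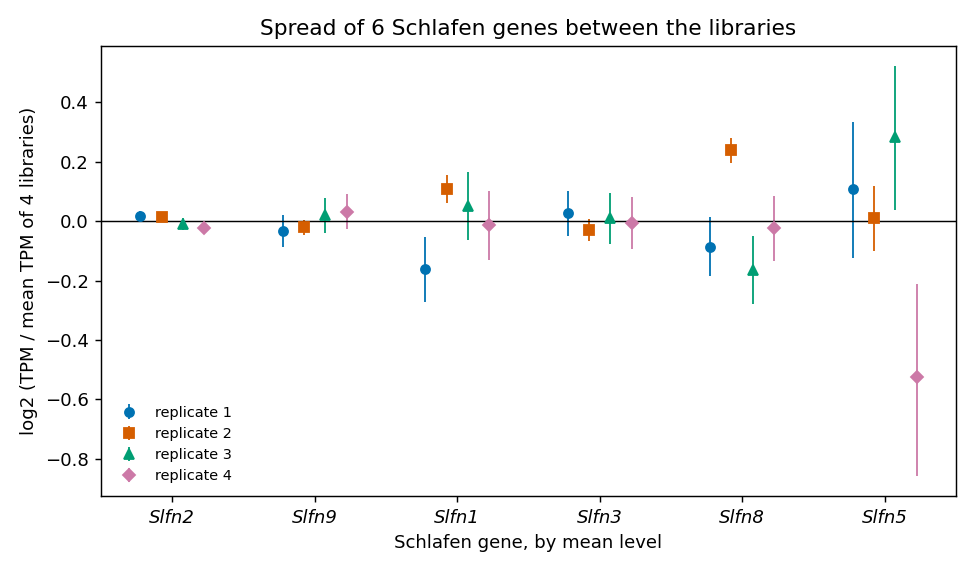
Log2 ratio of each library's TPM to the mean of the 4 libraries for 6 members, with exact 95% Poisson intervals; Slfn4, with 61 fragments in all, is left out. Slfn2, Slfn9 and Slfn3 lie close to 0 in every library, Slfn8 is highest in replicate 2 and Slfn5 lowest in replicate 4.

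Genes with close copies can lose fragments that align to several places, because the counting left such fragments out by default. Between members, identity over aligned coding bases ran from 57.6% to 92.7%. Slfn2 was closest to Slfn3 (75.2%) and to Slfn4 (75.1%) and had 71.3% with Slfn1. The share of 50-base stretches of each gene's transcripts that recur in another annotated gene elsewhere was 15.99% for Slfn3, 14.6% for Slfn8, 11.9% for Slfn9, 11.3% for Slfn4, 4.27% for Slfn2, 3.68% for Slfn5 and 0.606% for Slfn1. Of 100-base stretches, 3.71% recurred for Slfn9, 3.38% for Slfn8, 2.92% for Slfn3 and under 0.3% for each of the others. The partner with most shared 50-base stretches was Slfn10-ps for both Slfn8 (10.1%) and Slfn9 (8.10%), and Slfn3 for Slfn4 (6.28%). Neither the read length nor the number of fragments lost this way is known here. With only the 50-base stretches found nowhere else counted as length, an alternative chosen after seeing the data, the means of Slfn3, Slfn8 and Slfn9 became 26.6, 14.2 and 31.5 TPM, and Slfn3 then exceeded Slfn1 in all 4 libraries.

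**Figure D4:**
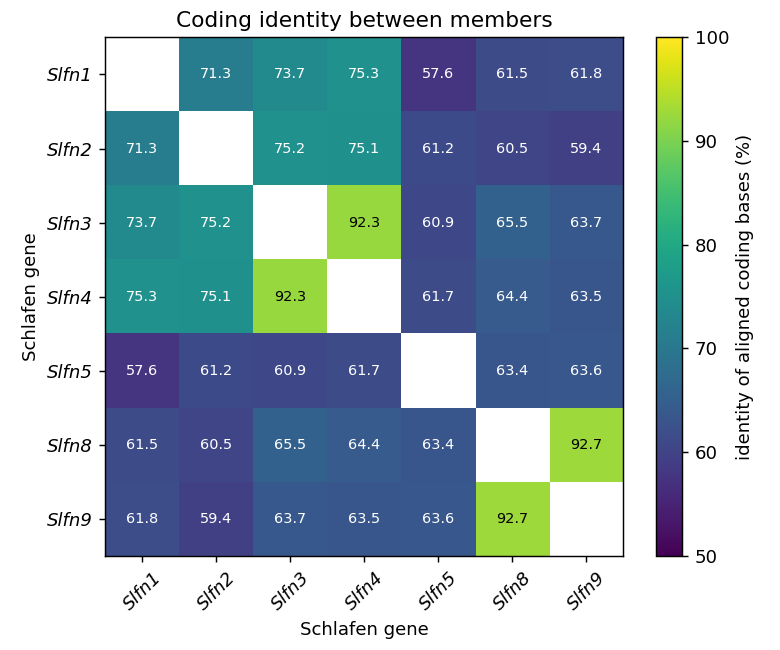
Identity of aligned coding bases (percent) between the longest annotated reading frames of each pair of members. Slfn3 with Slfn4 (92.3%) and Slfn8 with Slfn9 (92.7%) stand above all other pairs, which lie between 57.6% and 75.3%.

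Type I interferon genes, which share an inducer with the Schlafen genes, were mostly low beside Slfn2. Of 28 genes in that list 15 reached 1 TPM throughout, 8 reached 10 TPM, and 13 stayed below 1 TPM in each library, with a median of 2.22 TPM. Its highest members included Bst2, the tethering factor that holds virus at the cell surface (233 ± 4.27 TPM, SD, n = 4), and the receptor gene Ifnar1 (30.0 ± 1.55). Classical induced genes were at the low end, with Isg15 at 5.20 ± 2.32, Irf7 at 0.286 ± 0.0840 and Ifit1 at 0.193 ± 0.0715 TPM.

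Quiescence genes were transcribed in all libraries beside Slfn2. All 14 genes of the quiescence list reached 1 TPM throughout and 12 of them 10 TPM, with a median of 28.7 TPM. Tob2 and Btg1, both antiproliferative factors of the BTG and Tob family, had 167 ± 8.84 and 147 ± 3.45 TPM (SD, n = 4), and Btg2 of the same family had 92.7 ± 5.19. Slfn2 stood above each of the 14. In the list on transfer RNA cleavage and protection, Nsun2, a methyltransferase that protects transfer RNA, had 373 ± 11.3 TPM, Rtcb, the ligase that joins spliced transfer RNA, 320 ± 7.98, and Elac2, which trims transfer RNA ends, 157 ± 10.6. Ang, encoding angiogenin, had no fragment in any library, while Rnh1, its inhibitor, had 91.3 ± 7.91 TPM.

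**Figure D5:**
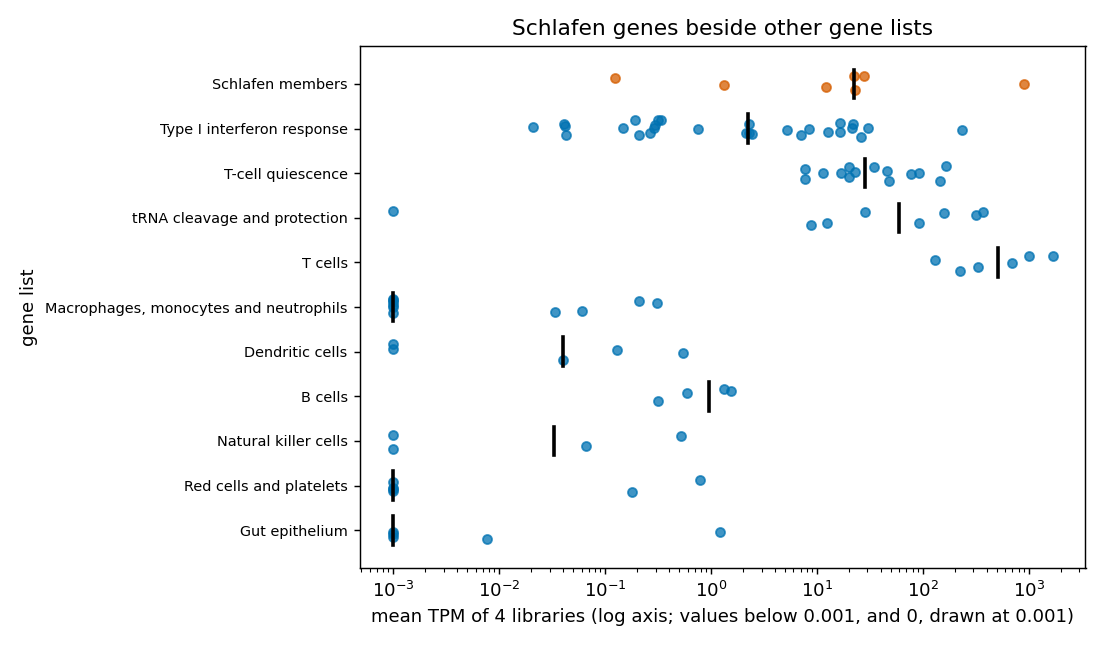
Mean TPM over the 4 libraries (log axis) of the 7 Schlafen genes and of the genes of each other list; dots are genes, black bars are list medians, and genes at 0 are drawn at the left edge. The Schlafen genes run from 0.125 to 896 TPM with a median of 22.3, and the myeloid markers lie below 1 TPM.

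The genes whose pattern over the 4 libraries was nearest to that of Slfn2 were Ezh2, Mbnl2 and Acot9. Likeness was the Euclidean distance between centred log2(TPM + 1) values over 4 libraries, among 8375 tested genes with a mean of at least 10 TPM. The distances were 0.00778, 0.00928 and 0.00935, against a median of 0.140 over all these genes. Within a distance of 0.1 lay 2412 genes. The pattern of Slfn2 was almost flat, with log2 ratios to its mean of 0.016, 0.015, -0.0099 and -0.022 in replicates 1 to 4. A small distance thus picks out other nearly flat genes and does not show shared regulation.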

How the data were processed

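RNA of primary mouse T cells was sequenced in 4 libraries of 1 group. The authors deposited raw counts per gene. These were made with featureCounts 1.4.6-p4, per the file headers, from alignments named as STAR output: pairs with both mates aligned were assigned to GENCODE vM13 exons with strand setting 2 (reverse-stranded). The recorded command sets no option for multi-mapping pairs or for pairs on overlapping genes, and the tool's default leaves both out. The build is mm10 per the labels, which name a total RNA assay but link a protocol for polyadenylated RNA. The column of exon lengths is, per the file headers, from the same tool.

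TPM was computed from counts and exon lengths; symbols came from GENCODE vM21 by identifier (50376 of 50600 matched). Members were described by library, with exact 95% Poisson intervals and a floor of 3 fragments; they describe counting error alone, as PCR copies of 1 molecule are not told apart. P-values measure the spread between these libraries, which may be in part technical and which takes in both patterns of Xist and Ddx3y. Variation was tested over all genes with edgeR 4.0.16 (R 4.3.3; filterByExpr with minimum count 10, TMM, trended dispersion, deviance against chi-square with 3 degrees of freedom), after a check on simulated data. Coding identity came from global alignments with free end gaps. Python 3.11.15, numpy 2.4.6, pandas 2.3.3, scipy 1.17.1, matplotlib 3.10.9 and DESeq2 1.42.0 (size factors only) were used. Genes named are the 7 members, other Schlafen genes, genes between and next to them, the highest 3 of each list (1 of them is not reported here) and the 3 most alike; Isg15, Irf7, Ifit1, Rnh1 and Ang were named after their values were seen. Members and lists were chosen with earlier results of these data known.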

Additional observations from a re-analysis of the deposited data

Results flagged for a closer look

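In 5 of 55 sets of 4 library values, 1 library lay far from the other 3 by Dixon's criterion, which chance alone meets in about 1 set in 20. The deepest was replicate 2, at 273136467 fragments, where the other libraries held 47558517 to 60102919. The ratio of Slfn2 to the sum of the other 6 members was 10.9 in replicate 1, against 10.1 to 10.2 in the others. The share of Slfn3 in the members' summed TPM was 2.20% in replicate 2, against 2.30% in each of the others. The marker genes Flt3 of dendritic cells, at 0.149 TPM against 0 to 0.0123, and Cdh1 of epithelium, at 0.0309 TPM against 0, stood apart in replicate 3. Flt3 had 19 fragments in all and Cdh1 had 2. With 0 in every other library Cdh1 meets the criterion by construction, so the rate of 1 in 20 does not apply to it.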

How the results depend on the processing

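No contrast between groups, paired or not, was possible because the labels give 1 group. With FPKM, which here runs below TPM, 1 member in place of 5 was at 10 or more in all libraries. The 46 genes called as varying became 862 with a common dispersion and 25 to 40 with a replicate left out (25 without replicate 2); no member was called under these or the other alternatives run. Slfn1 minus Slfn3 (0.03) became -0.79 with CPM, which ignores exon length, -0.013 and -0.21 with the unique share of 100-base and 50-base stretches as length, and -0.017 to 0.086 when single replicates were dropped, the lowest being without replicate 2. Slfn1 minus Slfn8 became -0.20 with CPM. These 2 pairs held all 5 reversals among the 168 values of pair differences under the alternatives. With a pseudocount of 0.1 Slfn5 minus Slfn4 was 2.73. The use of unique stretches was chosen after seeing the data. Depth limits Slfn4 and Slfn5 most, at 61 and 1045 fragments in all.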

Other observations

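Both annotated microRNA precursors inside the cluster had few fragments, all in the deepest library: Mir7679, within Slfn9, had 7 fragments and Gm27598, within Slfn10-ps, had 11, each in replicate 2 and none in the others. The long noncoding gene 1190001M18Rik, between Slfn5 and Slfn9, had 0.178, 0.249, 0.613 and 0.281 TPM in replicates 1 to 4, from 45 fragments in all. Gm48462, between Slfn2 and Slfn1, had 13 fragments. A row of 5 processed pseudogenes between Slfn1 and Slfn4 (Gm48467, Gm48468, Gm48469, Gm48477 and Gm48490) had no fragment in any library.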
